A study of Mus musculus with 8 samples.

Results

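Gcg and 5 genes used as markers of pancreatic alpha cells, Irx1, Irx2, Ttr, Gc and Pou3f4, were followed in islets of wild-type mice and of mice labelled Wfs1KO. They were taken by symbol from the count table, which held all 6 among 24537 genes, and all 6 passed the filter on low counts. The samples were whole pancreatic islets of male mice aged 12 weeks, 4 libraries labelled WT and 4 labelled Wfs1KO (Wfs1 knockout), with no treatment in either genotype. Its product, wolframin, spans the membrane of the endoplasmic reticulum (ER). The strain, and the cells in which the deletion acts, are not given in the sources used here. RNA came from all islet cells together, so no value below can be assigned to alpha cells alone.

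Alpha cells secrete glucagon, the hormone that raises blood glucose between meals, and in mouse islets they surround a core of insulin-secreting beta cells. Glucagon is cut out of proglucagon, the product of Gcg, by the prohormone convertase PC2. IRX1, IRX2 and POU3F4 (also called BRN4) are transcription factors found in alpha cells but largely not in beta cells. Ttr encodes transthyretin, a carrier of thyroxine and of retinol-binding protein, and Gc encodes the vitamin D binding protein. Both proteins are best known as secreted products of the liver.

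Exon counts ran from 15810830 to 27057617 per library. The targeted gene Wfs1 still had reads in every Wfs1KO library (179 ± 15.6 CPM in WT and 107 ± 11.8 CPM in Wfs1KO, SD, n = 4 each; CPM are counts scaled to library size with TMM factors). The first principal component (40.1% of variance) set replicates 1 and 2 of each genotype below replicates 3 and 4 of the same genotype, and the genotypes parted on the next (26.5%). Of 15733 tested genes 18.9% were called in edgeR's quasi-likelihood test at a Benjamini-Hochberg adjusted p under 0.05, 10.4% higher and 8.49% lower in Wfs1KO. "Rose" and "fell" are used only of called genes. The summed CPM of 8 endothelial markers ran from 517 to 601 in WT and from 709 to 841 in Wfs1KO, and all 8 rose. The summed CPM of 8 acinar markers ran from 25047 to 56078 in WT and in Wfs1KO between 7733 (replicate 3) and 53375 (replicate 4).

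Gc was the only gene of the 6 that was called, and it rose 2.14-fold in Wfs1KO islets. Glucagon RNA, the 2 Iroquois genes, Ttr and Pou3f4 overlapped between the genotypes and did not pass. With 1 of 6 called, the share among these genes was close to the 18.9% of all tested genes. Their median log2 fold change was 0.16, beside 0.013 over all tested genes.

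Per kb of exon the 6 genes spanned more than 4 orders of magnitude. Gcg (NM_008100, chromosome 2, 62474530 to 62483653 in mm10, minus strand) stood at 15641 ± 1842 CPM per kb in WT (SD, n = 4). Ttr (NM_013697, chromosome 18, 20665250 to 20674326, plus strand) followed at 871 ± 35.0 CPM per kb, and Gc (NM_008096, chromosome 5, 89417511 to 89457898, minus strand) at 47.2 ± 11.04 CPM per kb. The homeobox genes were far lower. Irx2 (NM_010574, chromosome 13, 72628797 to 72634196, plus strand) had 9.31 ± 1.16 CPM per kb and Irx1 (NM_010573, chromosome 13, 71958232 to 71963723, minus strand) 7.10 ± 0.858 CPM per kb. Pou3f4 (NM_008901, chromosome X, 110814379 to 110819108, plus strand) came last at 0.467 ± 0.125 CPM per kb, from 22 to 72 counts per library. The order was the same in Wfs1KO, and no neighbours in it overlapped within a genotype, although in WT the highest value of Irx1 (8.38 CPM per kb) lay just under the lowest of Irx2 (8.46). No exon of the 6 genes overlapped another gene in GENCODE M21, so the missing strand option does not touch their counts there.

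**Figure D1:**
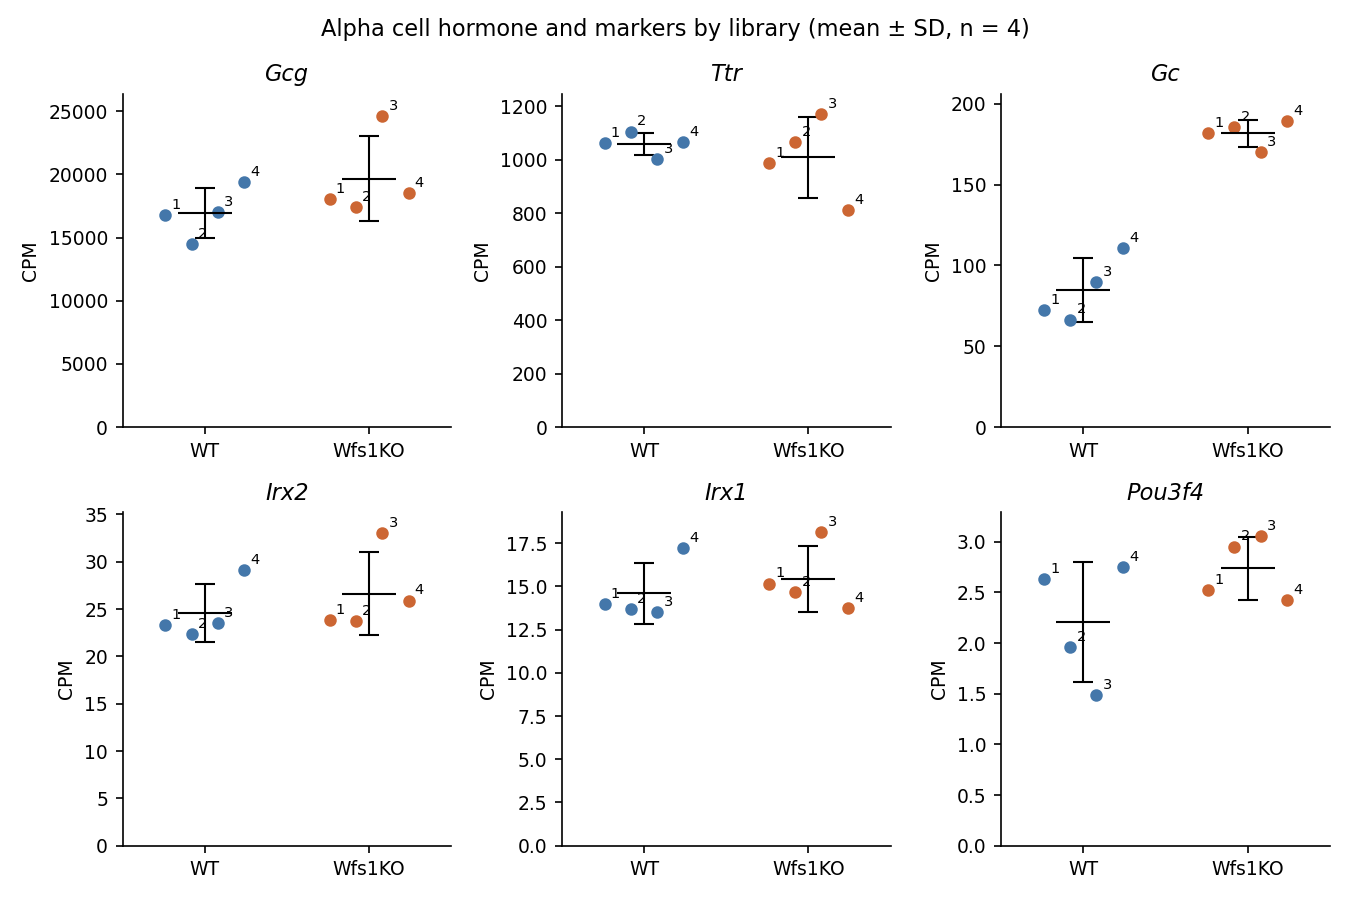
CPM (vertical axis from 0) of the 6 genes in each library, with the replicate number beside each point and bars for the mean ± SD of 4 libraries per genotype. Only for Gc do the genotypes not overlap (at most 111 CPM in WT, at least 169.9 in Wfs1KO). Wfs1KO replicate 3 is the highest library for Gcg, Irx1, Irx2, Ttr and Pou3f4, but not for Gc.

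The bases before the starts of Gcg and Gc are shown because these genes are the hormone that did not pass and the marker that rose. Both are the 250 bases upstream of the RefSeq start, from RefSeq on GRCm38.p6 (the build of mm10), read 5′ to 3′ on the minus strand, at chr2:62483654-62483903 for Gcg and chr5:89457899-89458148 for Gc. Capitals mark matches, on either strand, to 6 motifs that were searched. These were TATAAA for the TATA box, TGATGNAA for the C/EBP-ATF element bound by ATF4, GTTAAT for part of the HNF1 element, TGTTTNC for the FOXA core, TGACGTCA for the cyclic AMP element and the ER stress element by its consensus. The matches shown do not overlap each other.
Gcg: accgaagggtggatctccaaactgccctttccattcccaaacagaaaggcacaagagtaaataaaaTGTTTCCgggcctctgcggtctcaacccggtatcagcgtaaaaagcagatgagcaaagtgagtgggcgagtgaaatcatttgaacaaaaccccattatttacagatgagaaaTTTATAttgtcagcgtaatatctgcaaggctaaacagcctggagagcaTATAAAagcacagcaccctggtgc
Gc: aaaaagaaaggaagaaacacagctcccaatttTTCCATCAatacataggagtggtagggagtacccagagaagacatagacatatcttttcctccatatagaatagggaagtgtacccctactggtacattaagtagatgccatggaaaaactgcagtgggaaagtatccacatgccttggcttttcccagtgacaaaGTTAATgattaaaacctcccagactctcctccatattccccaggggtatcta
In the Gcg stretch the capitals are a FOXA core beginning at base -184 from the start, a TATA box on the other strand at -72 and a TATA box at -24. In the Gc stretch they are a C/EBP-ATF element on the other strand at -218 and an HNF1 element at -52. Of 32851 RefSeq promoter stretches of this length, 12.4% held the TATA box, 17.8% the FOXA core, 3.45% the C/EBP-ATF element and 6.43% the HNF1 element. Neither stretch held the cyclic AMP element (1.55% of stretches) or the ER stress element (0.113%). Bases farther upstream were not searched, so this does not speak to the rest of either promoter. These are matches of letters and show no binding.

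Glucagon RNA took 1.63%, 1.47%, 1.596% and 1.83% of exon counts in WT replicates 1 to 4 and 1.91%, 1.81%, 2.61% and 1.83% in Wfs1KO replicates 1 to 4. After TMM scaling, WT libraries held 16808, 14516, 17037 and 19395 CPM of Gcg and Wfs1KO libraries 18074, 17412, 24644 and 18518 CPM. All 4 Wfs1KO libraries lay above the WT mean, but WT replicate 4 exceeded every Wfs1KO library except replicate 3. The log2 fold change of Gcg was 0.22 (SE 0.12, 95% interval -0.04 to 0.47, adjusted p = 0.243, edgeR). Without Wfs1KO replicate 3, the library with the fewest acinar reads, the value was 0.078 (adjusted p = 0.690), and an acinar covariate in the fit made it 0.13 (adjusted p = 0.546). The authors' deposited table gives a log2 fold change of 0.18 for Gcg with an adjusted p = 0.395. In whole islets a difference in the number of alpha cells and one in Gcg RNA per cell could not be told apart.

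Against insulin RNA, glucagon RNA took a larger part of the hormone pool in every Wfs1KO library. For each Gcg count there were 8.74, 10.2, 8.15 and 9.39 counts of Ins1 and Ins2 together in WT replicates 1 to 4, and 5.39, 6.12, 3.81 and 4.57 in Wfs1KO replicates 1 to 4. The genotypes did not overlap. The log2 ratio of Gcg to insulin counts was 0.89 higher in Wfs1KO (-2.29 ± 0.297 against -3.18 ± 0.137, SD, n = 4 each). An exact two-sided permutation test gave p = 0.0286, the smallest that 70 splits allow. With the replicate number as a block, the exact sign-flip test over 4 pairs gave p = 0.125, the smallest it allows. Ins2 fell by 0.79 and Ins1 by 0.41 on the log2 scale, while the Gcg value above did not pass. Within the replicate pairs, Ins1 stood at -0.27 in replicates 1 and 2 alone (adjusted p = 0.273, edgeR) and Ins2 at -0.97 in replicates 3 and 4 alone (adjusted p = 0.0561), neither of them called there.

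The Iroquois genes Irx1 and Irx2 lie next to each other on chromosome 13 and encode homeodomain proteins. WT replicates 1 to 4 held 23.3, 22.3, 23.5 and 29.1 CPM of Irx2, and Wfs1KO replicates 1 to 4 held 23.8, 23.7, 33.0 and 25.9 CPM. For Irx1 the WT libraries held 13.98, 13.7, 13.5 and 17.2 CPM and the Wfs1KO libraries 15.2, 14.7, 18.1 and 13.8 CPM. WT replicate 4 and Wfs1KO replicate 3 were the high libraries for both genes, and the genotypes overlapped. Log2 fold changes were 0.11 for Irx2 (SE 0.12, 95% interval -0.15 to 0.36, adjusted p = 0.598) and 0.073 for Irx1 (SE 0.10, 95% interval -0.15 to 0.30, adjusted p = 0.697, edgeR). Without Wfs1KO replicate 3 they were -0.020 and -0.021. Elsewhere in the family, Irx3 rose from 0.715 ± 0.104 to 1.65 ± 0.565 CPM (log2 fold change 1.22, SE 0.33, adjusted p = 0.0177), on 10 to 68 counts per library. Irx3 overlaps Irx3os on the opposite strand, and leaving out WT replicate 1, Wfs1KO replicate 1 or Wfs1KO replicate 2 ended its call (adjusted p = 0.0561, 0.0698 and 0.0526). Irx4 and Irx5 did not reach the filter (means of at most 0.142 CPM), Irx6 had no count in any library, and the related gene Mkx stood at 0.46 (adjusted p = 0.0950).

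Irx2 was high and low in the same libraries as Gcg within each genotype. With genotype means removed, log2 CPM of Irx2 and Gcg correlated at Pearson's r = 0.953 over 8 libraries (exact permutation within genotypes, p = 0.00174, the smallest these pairings allow, and 0.00868 adjusted over 5 genes) and Spearman's rho = 0.857 (exact permutation p = 0.00174, adjusted 0.00868). Without Wfs1KO replicate 3 and WT replicate 2, the libraries farthest from the median of Gcg, r was 0.976 (exact permutation p = 0.0278, the smallest of 36 pairings, adjusted 0.139). With total counts in place of TMM r was 0.952 (exact permutation p = 0.0313, adjusted 0.0825). Irx1 had r = 0.845 and rho = 0.476 (exact permutation p = 0.0451 and 0.273, adjusted 0.113 and 0.556), and r = 0.781 without the same 2 libraries. For Pou3f4, Gc and Ttr r was 0.402, 0.389 and 0.369, and rho was 0.381, 0.405 and 0.0476 (exact permutation p of r from 0.311 to 0.512, adjusted 0.421 to 0.512; of rho from 0.441 to 0.964, adjusted 0.556 to 0.964). Without those 2 libraries they had r = 0.325, 0.849 and -0.226. Points of 1 library share its depth and its mix of islet cells, and replicates 1 and 2 or 3 and 4 alone hold too few libraries for a correlation within them. The permutation also moved libraries freely within a genotype, although the shared replicate numbers may pair the libraries, which was not tested. With replicate number means removed as well, which leaves 4 differences, r was 0.980 for Irx2 (exact permutation p = 0.0417, the smallest of 24 orders, adjusted 0.104). It was nearly as high for Ttr (0.978) and Pou3f4 (0.972), lower for Irx1 (0.937) and 0.108 for Gc, so Irx2 was not set apart from Ttr and Pou3f4 there. With the means of replicates 1 and 2 and of 3 and 4 removed in each genotype, r was 0.912 for Irx2 (exact permutation p = 0.125, the smallest of 16 orders, adjusted 0.3125) and 0.890 for Irx1.

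**Figure D2:**
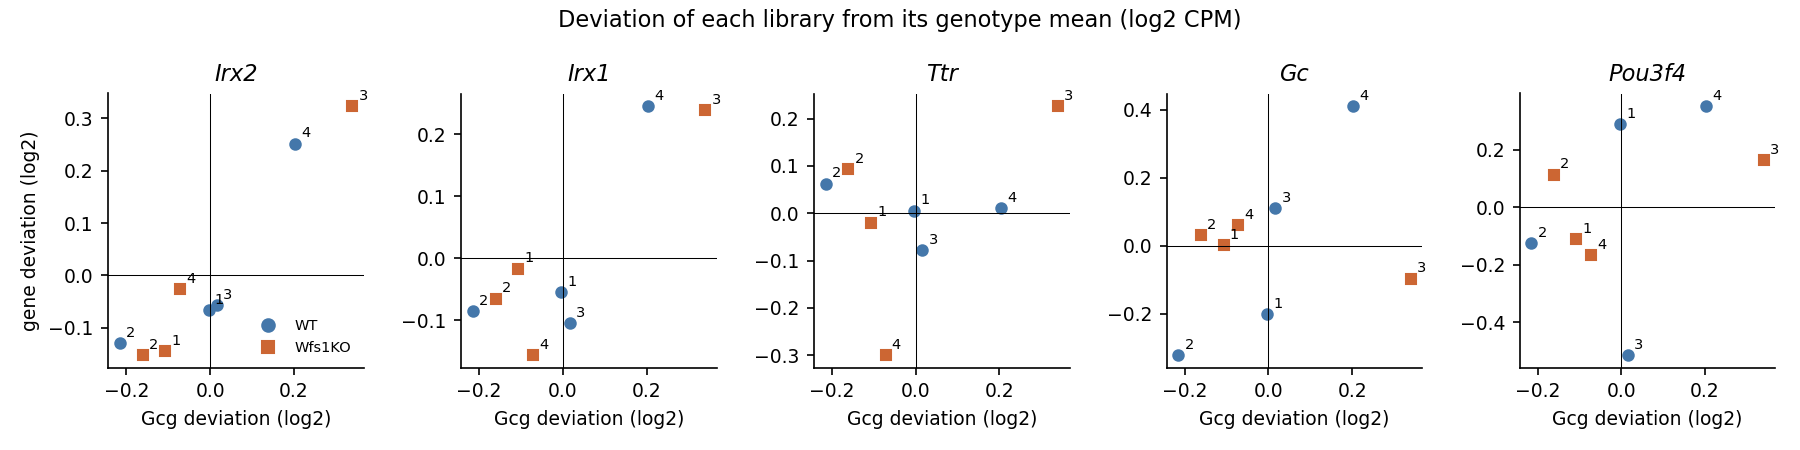
Deviation of each library from its genotype mean in log2 CPM, for Gcg on the horizontal axis and 5 marker genes on the vertical axes (circles WT, squares Wfs1KO, replicate numbers beside the points). Irx2 lines up with Gcg (r = 0.953), with WT replicate 4 and Wfs1KO replicate 3 at the upper right, while Ttr is spread without such a line (r = 0.369).

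Across all 8 libraries, genotype included, the genes whose log2 CPM followed Gcg most closely among 11543 genes with at least 5 CPM were Dbpht2 (Pearson's r = 0.977), Ubald1 (0.967), Gpld1 (0.966), Tm9sf1 (0.964) and Mamld1 (0.958). These were picked as the highest of all genes, so their r is a description without a test. Spearman's rho for them lay between 0.833 (Ubald1) and 1 (Gpld1). None of the 5 was called, with log2 fold changes from 0.10 to 0.15 and adjusted p from 0.172 to 0.617 (edgeR). Gpld1, which encodes a phospholipase that cuts glycosylphosphatidylinositol anchors, overlaps Mrs2 on the opposite strand, and Tm9sf1 overlaps 2 predicted genes. On the same measure Irx2 ranked 13 (r = 0.936) and Irx1 136 (0.835), whereas Gc ranked 1445 (0.595) and Ttr 5077 (0.165).

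Pou3f4 encodes a POU homeodomain protein that binds the proximal part of the glucagon promoter. Its RNA came to 2.63, 1.96, 1.49 and 2.75 CPM across WT replicates 1 to 4, against 2.52, 2.95, 3.06 and 2.42 CPM across Wfs1KO replicates 1 to 4. The low values were in WT replicates 2 and 3, and the genotypes overlapped. The log2 fold change was 0.30 (SE 0.22, 95% interval -0.19 to 0.78, adjusted p = 0.411, edgeR), the widest interval of the 6 genes at the fewest counts. The other POU class 3 genes had less RNA still. Pou3f1, Pou3f2 and Pou3f3 stood at means of 0.528 to 0.995 CPM, and none was called (adjusted p 0.608 to 0.934).

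Ttr was steady in WT, at 1061, 1104, 1001 and 1065 CPM in replicates 1 to 4. Wfs1KO replicates 1 to 4 had 986, 1066, 1169 and 812 CPM, so that Wfs1KO held both the highest and the lowest library. The log2 fold change was -0.069 (SE 0.10, 95% interval -0.28 to 0.14, adjusted p = 0.687, edgeR). Wfs1KO replicate 4, the lowest, was also the Wfs1KO library with the most acinar reads, and without it the value was 0.014 (adjusted p = 0.937). The part of acinar RNA in this was tested only as a covariate, which gave -0.19 (adjusted p = 0.0859). Per 1000 Gcg counts there were 63.1, 76.0, 58.8 and 54.9 Ttr counts in WT and 54.6, 61.2, 47.5 and 43.8 in Wfs1KO. That ratio was lower by 0.29 on the log2 scale, with overlap (exact permutation p = 0.114, adjusted 0.190 over 5 ratios).

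Among genes of thyroid hormone and retinol carriage, 2 of 10 tested members rose and 1 fell, with a median log2 fold change of 0.13, or 30% called beside 18.9% of all tested genes. Serpina7, which encodes thyroxine-binding globulin, another carrier of the hormone that transthyretin binds, rose from 11.1 ± 4.14 to 78.7 ± 8.75 CPM (log2 fold change 2.83, SE 0.24, adjusted p = 2.30e-04, edgeR). Dio1, the deiodinase that converts thyroxine, rose (log2 fold change 0.25, SE 0.060, adjusted p = 0.00855), and the thyroid hormone receptor gene Thra fell (-0.32, SE 0.065, adjusted p = 0.00376). Thra overlaps Nr1d1 on the opposite strand. Ttr remained the most abundant member per kb.

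Gc rose in all Wfs1KO libraries. WT replicates 1 to 4 held 72.4, 66.6, 89.8 and 110.7 CPM, and Wfs1KO replicates 1 to 4 held 182, 186, 169.9 and 189 CPM. The lowest Wfs1KO library lay above the highest WT library, as in 12.3% of all tested genes (the reverse held in 10.3%, and 22.6% did not overlap in either direction). The SD was smaller in Wfs1KO (181.8 ± 8.499 CPM) than in WT (84.9 ± 19.8 CPM). The log2 fold change was 1.10 (SE 0.15, 95% interval 0.77 to 1.43, adjusted p = 9.98e-04, edgeR), and 102 of the 1635 risen genes had a larger one. The authors' deposited table gives 0.91 with an adjusted p = 2.02e-08; 12.4% of the 24537 genes in that table have one under 0.05. With each library left out in turn the value of Gc ran from 0.998 to 1.26 and stayed called. The pair of replicates 1 and 2 alone gave 1.38 (adjusted p = 2.21e-12) and that of replicates 3 and 4 alone 0.83 (adjusted p = 0.00131). Beside this rise the endothelial sums given above did not overlap between the genotypes, and with the endothelial score as a covariate Gc stood at 0.73 (adjusted p = 0.753) and 9 of all tested genes were called.

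**Figure D3:**
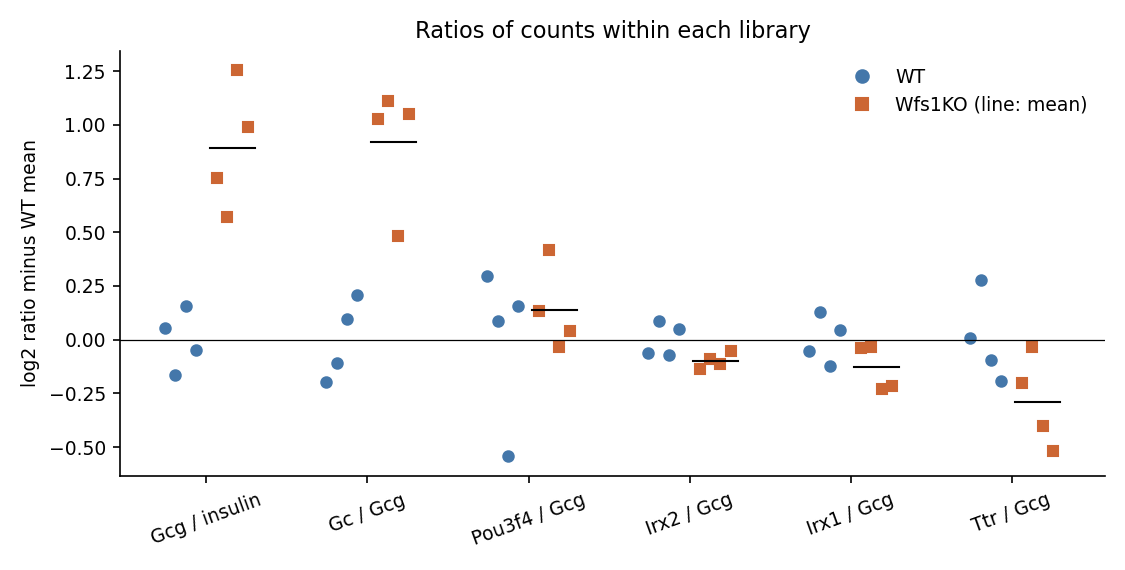
Log2 ratio of counts within each library minus the WT mean of that ratio (circles WT, squares Wfs1KO, lines the Wfs1KO mean), for Gcg over insulin and for 5 markers over Gcg. The genotypes do not overlap for Gcg over insulin (0.89 higher) and Gc over Gcg (0.92 higher), and they overlap for the other 4 ratios.

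Gc parted from glucagon within the libraries. For every 1000 Gcg counts there were 4.31, 4.59, 5.27 and 5.71 Gc counts in WT replicates 1 to 4 and 10.07, 10.7, 6.89 and 10.2 in Wfs1KO replicates 1 to 4. The genotypes did not overlap, and Wfs1KO replicate 3, which had the most Gcg, was the lowest of its genotype. The log2 ratio was 0.92 higher in Wfs1KO (-6.74 ± 0.293 against -7.66 ± 0.185, SD, n = 4 each). The exact two-sided permutation p was 0.0286, the smallest that 70 splits allow, and 0.143 adjusted over the 5 ratios, so this design could not pass for a single ratio. The ratios of Irx2 and Irx1 to Gcg were lower by 0.099 and 0.13 on the log2 scale and that of Pou3f4 was higher by 0.14, all with overlap (exact permutation p = 0.0857, 0.2 and 0.657, adjusted 0.190, 0.25 and 0.657).

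The genes whose log2 CPM over the 8 libraries was most like that of Gc were Alg5 (Pearson's r = 0.994), a glucosyltransferase gene of N-glycan synthesis, Tmem27 (0.992), Slc18a1 (0.992), which encodes a vesicular monoamine transporter, Fam175b (0.990) and Zdhhc22 (0.989), which encodes a palmitoyltransferase. All 5 rose, with log2 fold changes from 0.37 (Tmem27) to 1.45 (Zdhhc22), and likeness to a gene that parts the genotypes picks such genes. Rgs4, a regulator of G protein signalling, ranked 11 (0.986). Gcg itself ranked 2799 (0.595).

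Gc belongs to the albumin gene family, whose members lie together on chromosome 5. Wfs1 is on the same chromosome, 52.4 Mb from Gc. The family member Afm, which encodes afamin and begins 1061051 bases from the start of Gc, fell from 3.73, 3.23, 1.82 and 2.06 CPM in WT replicates 1 to 4 to 0.350, 0.629, 0 and 0.198 CPM in Wfs1KO replicates 1 to 4. Its log2 fold change was -3.13 (SE 0.54, adjusted p = 0.00151, edgeR), opposite in sign to Gc, and it overlaps Gm42109 on the opposite strand. Alb and Afp were at means of at most 0.519 CPM and below the filter. Of 11 other tested genes that start within 1 Mb of Gc, 0 rose and 1 fell (Rufy3, -0.19, adjusted p = 0.0253, named after its value was seen). Around all 6 genes 3 of 39 tested neighbours rose and 3 fell, or 15.4%, beside 18.9% of all tested genes.

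Hepatocyte markers were followed because liver also makes the products of Gc and Ttr. Whether liver RNA contributed to either gene was not tested. The summed CPM of 8 hepatocyte markers ran from 48.4 to 55.4 in WT and from 38.9 to 46.6 in Wfs1KO, most of it from Tat, which fell (46.8 ± 4.34 to 36.3 ± 3.07 CPM), while 7 of the 8 stood at means of 4.51 CPM or less in either genotype. In the vitamin D pathway 1 of 10 tested members rose and 1 fell (median -0.028), a share of 20% that is near the 18.9% of all tested genes. The receptor gene Vdr fell from 163 ± 20.1 to 120.3 ± 8.58 CPM (log2 fold change -0.44, adjusted p = 0.00262, edgeR), and Pdia3, a disulfide isomerase of the ER also studied as a membrane binder of vitamin D metabolites, rose by 0.42 (SE 0.067, adjusted p = 6.62e-04). Pdia3 overlaps Catsper2 on the opposite strand.

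A wider list of alpha cell markers moved in both directions. Calls were made for 5 of 11 tested members, with 2 higher, 3 lower and the other 6 not passing (median -0.023, beside 0.013 over all tested genes). Called members made up 45.5% of the list, beside 18.9% of all tested genes. Rgs4 rose from 22.6 ± 3.94 to 42.3 ± 2.54 CPM and the transcription factor gene Etv1 from 42.0 ± 1.20 to 58.0 ± 4.42 CPM. Slc7a2, a cationic amino acid transporter gene (log2 fold change -0.58), the imprinted gene Peg3 (-0.59) and Tm4sf4 (-0.43) fell, and Slc7a2 overlaps Gm26584 on the opposite strand. In these 5 genes the genotypes did not overlap (adjusted p 1.03e-04 to 8.41e-04, edgeR), as in 22.6% of all tested genes in either direction. The 5 are the called members of the list, so the lack of overlap adds little to their calls.

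**Figure D4:**
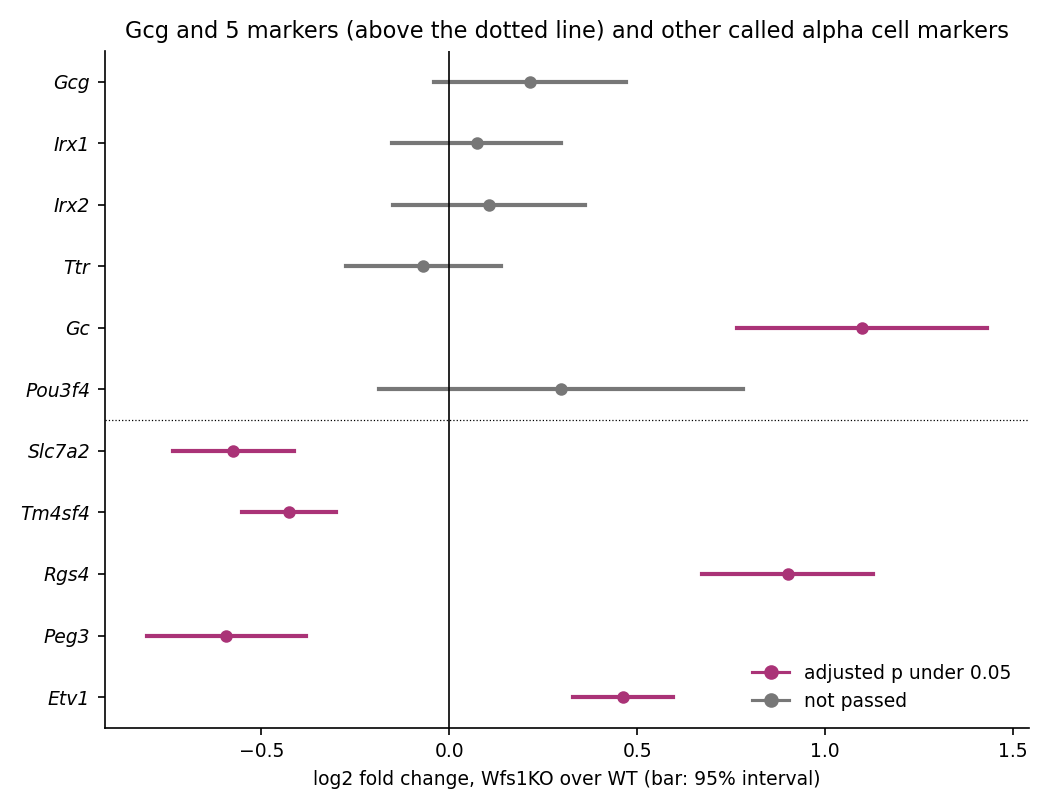
Log2 fold change of Wfs1KO over WT (points, horizontal axis) with its 95% interval (bars) for Gcg and 5 markers above the dotted line and for the 5 called genes among the other alpha cell markers below it. Coloured genes have an adjusted p under 0.05, which holds for Gc (1.10) above the line and for Rgs4, Etv1, Tm4sf4, Slc7a2 and Peg3 below it.

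Regulators of the glucagon gene that are shared with other islet cells fell or did not pass. Of 13 tested members 5 fell and 0 rose, a share of 38.5% beside the 8.49% of all tested genes that fell (median -0.095). Foxa2, a forkhead factor of islet and liver, fell from 123 ± 7.12 to 92.7 ± 3.27 CPM (log2 fold change -0.40, SE 0.056, adjusted p = 2.07e-04, edgeR). Neurod1 (-0.41) and Nkx2-2 (-0.35), 2 transcription factor genes of endocrine differentiation, fell with adjusted p of 7.74e-04 and 0.00105. Hmgn3 and Insm1 fell by 0.28 and 0.25. Leaving out any of WT replicates 1 and 2 and Wfs1KO replicates 1 and 3 ended the call of Hmgn3 (adjusted p 0.0576 to 0.0874), and any library but replicate 4 of either genotype that of Insm1 (0.0594 to 0.114). The list then had 3 calls in each of those 4 fits for Hmgn3, and 3 with the acinar covariate. Neurod1, Nkx2-2 and Hmgn3 overlap genes on the opposite strand, and Neurod1 also overlaps Cerkl on the same strand.

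Of 8 tested genes for the processing of proglucagon and other prohormones, 1 fell and 0 rose (median -0.043). The 12.5% that fell is near the 8.49% of all tested genes. Pcsk1, which encodes the convertase PC1/3 that yields GLP-1 from proglucagon, fell from 395 ± 22.4 to 250.03 ± 14.7 CPM (log2 fold change -0.66, SE 0.06, adjusted p = 9.89e-06, edgeR). The carboxypeptidase gene Cpe, the most abundant per kb, stood at -0.083 (adjusted p = 0.518). Pcsk2, which encodes the convertase PC2 that yields glucagon and was chosen here after its value was seen, stood at -0.21 (SE 0.076, adjusted p = 0.0737). The count of this list rested on the fit: 3 members were called with the replicate block, 4 in DESeq2, 2 without WT replicate 1 or 4 and 3 without WT replicate 2.

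In glucagon and incretin signalling 3 of 18 tested members rose and 3 fell (median -0.087), or 33.3% called beside 18.9% of all tested genes. The GIP receptor gene Gipr fell from 159.8 ± 21.4 to 88.5 ± 6.57 CPM (log2 fold change -0.85, SE 0.09, adjusted p = 3.98e-05) and the GLP-1 receptor gene Glp1r from 206 ± 29.9 to 141 ± 19.1 CPM (-0.54, adjusted p = 0.00859, edgeR, and 0.0762 with the replicate block). Rapgef4, a cyclic AMP sensor gene, fell by 0.21 on the log2 scale. The phosphodiesterase gene Pde4d (0.58), the cyclic AMP sensor gene Rapgef3 (0.50) and the G protein gene Gnas (0.26) rose. The call of Gnas ended with any of WT replicates 1 to 3 or Wfs1KO replicates 1, 3 and 4 left out (adjusted p 0.0624 to 0.126), and Rapgef3, Rapgef4 and Gnas overlap genes on the opposite strand.

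Receptors and transporters that act in the control of alpha cells, many of them shared with beta or delta cells, moved more often down than up. The list had 19 tested members, of which 6 fell, 2 rose and the remaining 11 did not pass (median -0.091). That is 31.6% lower and 10.5% higher, beside 8.49% and 10.4% of all tested genes. The fatty acid receptor gene Ffar1 fell most (51.5 ± 3.22 to 23.0 ± 1.51 CPM, log2 fold change -1.16, SE 0.07, adjusted p = 1.65e-07, edgeR). The muscarinic receptor gene Chrm3 (-0.64), Gpr119 (-0.49), the glutamate receptor gene Grin1 (-0.47), the amino acid transporter gene Slc38a4 (-0.43) and the calcium-sensing receptor gene Casr (-0.21) fell as well. Grin1 overlaps Grin1os on the opposite strand. The call of Casr ended with any of WT replicates 1 and 3 or Wfs1KO replicates 1 and 2 left out (adjusted p 0.0526 to 0.0810). The ghrelin receptor gene Ghsr (0.41) rose. It was not called with any single library left out (adjusted p 0.0518 to 0.115), with the replicate block (0.0554) or in DESeq2 (0.0659). Its call held in 3 of 21 alternatives. Without WT replicate 3, or with the acinar covariate, the list had 5 calls in place of 8. The somatostatin receptor gene Sstr3, the most abundant per kb, stood at -0.091 (adjusted p = 0.322).

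**Figure D5:**
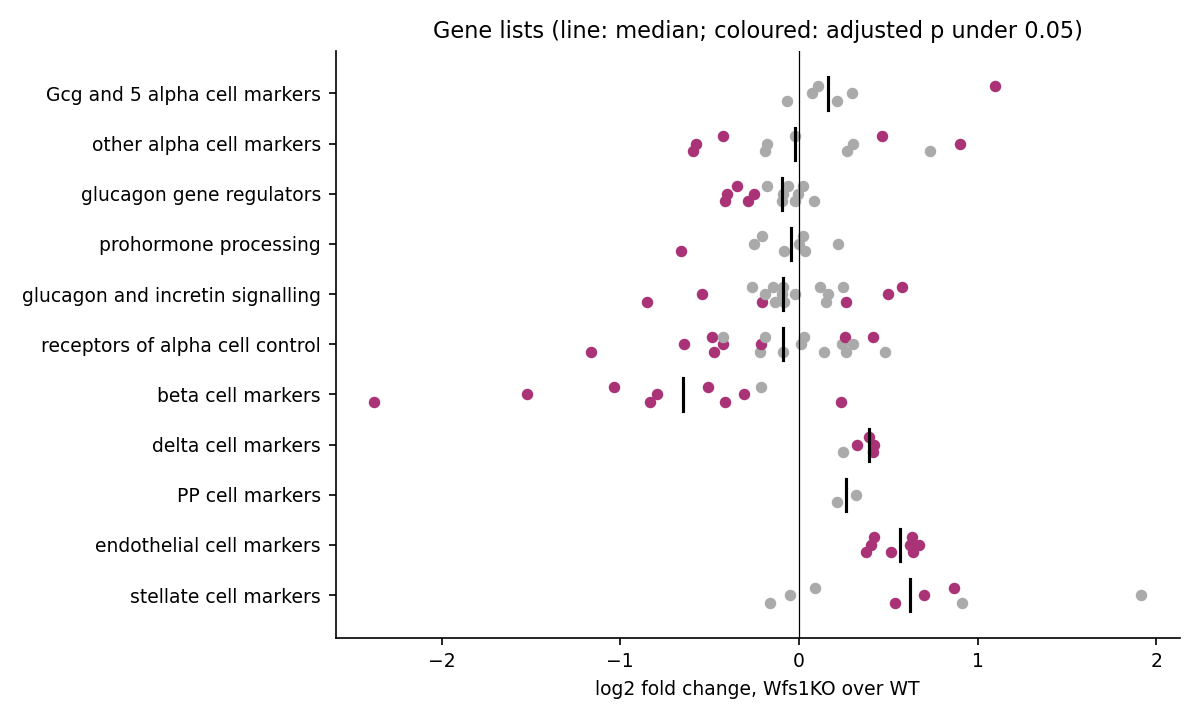
Log2 fold change of Wfs1KO over WT for each tested gene (points, coloured where the adjusted p is under 0.05) of 11 gene lists, with a line at each list's median. Gcg and 5 alpha cell markers have a median of 0.16 with Gc at the right, beta cell markers one of -0.65 and endothelial markers one of 0.57.

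Counts of calls differed among the markers of the other endocrine cells. Of 10 beta cell markers 8 fell and 1 rose (median -0.65), beside 8.49% of all tested genes that fell and 10.4% that rose. Of 5 delta cell markers 4 rose (median 0.39), among them the somatostatin gene Sst (2086 ± 159 to 2734 ± 414 CPM, adjusted p = 0.0172, edgeR), whose call ended with WT replicate 1, Wfs1KO replicate 2 or Wfs1KO replicate 3 left out (adjusted p 0.0506, 0.0618 and 0.0517). Ghsr, also among the 4, kept its call in 3 of 21 alternatives. Delta cell calls numbered 2 without WT replicate 2, WT replicate 3 or Wfs1KO replicate 1, and 1 without Wfs1KO replicate 2 or 3 or with the acinar covariate. In the main fit 0 of 2 PP cell markers were called (1 without WT replicate 4 or in replicates 1 and 2 alone). Ghrl, the ghrelin cell marker, was not called there either. For Ppy, which encodes pancreatic polypeptide, the log2 fold change was 0.21 (adjusted p = 0.422, edgeR). Of 8 stellate cell markers 3 rose (summed CPM 181 to 269.9 in WT and 313 to 368 in Wfs1KO), of 6 duct markers 1 rose (Spp1, not called with the replicate block, without the filter or without WT replicate 1, Wfs1KO replicate 1 or Wfs1KO replicate 2, adjusted p 0.0559 to 0.0825), and 0 of 8 acinar and 0 of 8 immune markers were called in edgeR (1 immune marker with the replicate block or without Wfs1KO replicate 4). Spp1 overlaps Gm42793 on the same strand. In replicates 1 and 2 alone, 6 acinar and 8 stellate markers were called. The differences between lists were not tested.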

How the data were processed

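RNA of whole islets was measured in 8 libraries, 4 per genotype. The submitters' processing notes name STAR 2.6.0a for alignment, HOMER 4.11.1 for counting and the build mm10. The deposited values are raw counts over the exons of each RefSeq gene, made by the authors with no normalization and no strand option, per the file headers. The authors' deposited table gives log2 fold changes of Wfs1KO over WT, whose sign was checked against the counts, and p-values before and after adjustment. DESeq2 is named in the submitters' processing notes; its settings are not given in the sources used here. The table held 24537 genes. The test covered the 15733 that passed edgeR's filterByExpr by genotype at its defaults. These ask for the CPM that equals 10 counts at the median library size, in at least 4 libraries, and for 15 counts in total.

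The fit used edgeR 4.0.16 under R 4.3.3, with TMM factors and the robust quasi-likelihood F-test. P-values were Benjamini-Hochberg adjusted over all tested genes. Genes with an adjusted p under 0.05 were called. CPM use TMM-scaled library sizes. Each standard error (SE) was derived from the F statistic, as the log2 fold change divided by its square root. On simulated counts of this comparison (15480 genes) 96% of 200 changed genes were recovered, and 13 calls were false, or 6.34% of calls. The changed genes all had higher expected counts than Pou3f4. They were also given larger changes than those estimated for Gcg, Irx1, Irx2, Ttr and Pou3f4. The recovered share therefore does not bear on these 5 genes. Ratios within a library and co-variation between genes were tested by exact permutation in Python 3.11.15. The genes described and the lists were chosen with earlier results of these data known. Genes named beside the 6 are the hormone genes, Wfs1, up to 6 called members per list with the smallest adjusted p, each list's most abundant member per kb, the family members of Irx1, Pou3f4 and Gc, and the 5 genes most like Gcg and Gc across libraries (from those with a mean of at least 5 CPM). Some genes this rule or the lists include are not reported here.

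Replicate numbers are shared by the genotypes in the labels. Deviations of same-numbered libraries from their genotype means correlated across genes (which are not independent replicates) at 0.176, 0.449, 0.288 and 0.190. Differently numbered libraries were not compared in this way, so whether the numbers pair the samples was not tested. The numbers were taken as a possible pairing, and a replicate block was an alternative to the main fit, which has none. Other alternatives were DESeq2 1.42.0, its size factors in edgeR, limma-voom (limma 3.58.1), all genes unfiltered, a minimum of 1 CPM in 4 libraries, library sizes without the 20 most abundant genes, an acinar score as a covariate and each library left out. A block of replicates 1 and 2 against 3 and 4, each of these pairs alone, the libraries richest in Gcg left out, an endothelial score as a covariate and blocked correlations are alternatives chosen after seeing the data. The p-values measure the spread between these samples. The labels do not say whether a library came from a single mouse or from pooled mice.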

Additional observations from a re-analysis of the deposited data

Results flagged for a closer look

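Single libraries stood far from the other 3 of their genotype in 7 of 68 groups of 4 values that were checked by Dixon's gap test, and chance flags about 1 in 20 groups. Several of the measures share genes, so these are not separate events. In Wfs1KO replicate 3 Gcg stood at 24644 CPM, the summed CPM of Gcg and the 5 markers at 26038 and the Iroquois family sum at 55.7 CPM. In the same library the log2 ratio of Gc to Gcg was -7.18, the low value of its genotype. In WT replicate 4 Irx1 stood at 17.2 CPM and the Iroquois family sum at 49.7 CPM. The summed stellate cell markers stood at 368 CPM in Wfs1KO replicate 1. Wfs1KO replicate 3 also had the lowest acinar sum of all 8 libraries (7733 CPM), and the part of this in its Gcg value was tested only as the covariate given above.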

How the results depend on the processing

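Gc kept its direction and its call under 20 of 21 alternatives, and none of Gcg, Irx1, Irx2, Ttr and Pou3f4 was called under any of the 21. With the endothelial score as a covariate, which parts the genotypes by itself, 9 genes were called in all, 0 of the 6 genes and 0 of the 157 tested genes of the other lists, with Gc at 0.73 (adjusted p = 0.753), Gcg at -0.65, Irx1 at -0.31, Irx2 at -0.60 and Ttr at 0.012. The same covariate turned the sign of Hmgn3 (0.53), Insm1 (0.13), Rapgef3 (-0.0065), Gnas (-0.33), Sstr3 (0.16), Afm (1.29), Tat (0.42), Krt7 (0.12), Eng (-0.19), Plvap (-0.23), Tek (-0.095), Flt1 (-0.32), Pdgfrb (-0.022), Pou3f1 (2.17), Pou3f2 (4.15), Pou3f3 (4.17), Dbpht2 (-0.29), Ubald1 (-0.21), Gpld1 (-0.29), Tm9sf1 (-0.49) and Mamld1 (-0.92). Replicates 3 and 4 alone gave -0.13 for Ppy, replicates 1 and 2 alone 0.25 for Pou3f3, the 2 libraries richest in Gcg left out 0.12 for Pou3f3, and limma-voom 0.12 for Pou3f1, none of them called in any fit. Pou3f2 and Pou3f3 gave no value in DESeq2, with the 1 CPM filter or from replicates 3 and 4 alone. Replicates 3 and 4 alone gave 1846 calls over all genes in place of 2970. The acinar score as a covariate gave -0.024 for Irx1. With 1 library left out in turn Irx1 ran from -0.021 to 0.17, Irx2 from -0.020 to 0.20, Ttr from -0.16 to 0.014, Mamld1 from -0.042 to 0.22, Pou3f1 from -0.31 to 0.079, Pou3f2 from -1.08 to 0.15, Pou3f3 from -0.51 to 0.22 and the log2 ratio of Pou3f4 to Gcg from -0.042 to 0.24. The cause of these changes was not tested. The replicate block left the difference in the log2 ratio of Gcg to insulin at 0.89 (exact permutation p = 0.125, the smallest 4 pairs allow). Of the other named genes it ended the calls of Glp1r, Ghsr and Spp1 and gave one to Ghrl. The correlation of Irx2 with Gcg was 0.976 without the 2 libraries farthest in Gcg and 0.952 without TMM, and 0.980 with the replicate block and 0.912 with replicates 1 and 2 against 3 and 4 as a block, and lost its adjusted call in all 4, while that of Ttr was -0.226 without those libraries. DESeq2's size factors moved the median of all genes by -0.012 and the removal of the 20 most abundant genes by -0.021. Pou3f4 had the fewest counts of the 6 genes (22 to 72 per library); the part of depth in its wide interval was not tested.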

Other observations

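Of 10 tested transcription factor genes that liver shares with islets, 4 fell and 1 rose in Wfs1KO (median -0.19), or 40% lower and 10% higher beside 8.49% and 10.4% of all tested genes. Foxa3 (log2 fold change -0.33, adjusted p = 0.00637, edgeR) and Hnf4g (-0.30) fell beside Foxa2, given above, and Cebpa rose from 5.04 ± 1.02 to 7.22 ± 0.832 CPM (adjusted p = 0.0292). Leaving out WT replicate 1 or 3 ended the call of Hnf4g (adjusted p 0.0550 to 0.0589) and any of WT replicate 1 and Wfs1KO replicates 1, 2 and 4 that of Cebpa (0.0656 to 0.0759). Cebpa overlaps Gm45091 on the opposite strand. The list had 2 calls in place of 5 without WT replicate 1, and 3 without WT replicate 3, Wfs1KO replicate 1 or Wfs1KO replicate 2 or with the acinar covariate.

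In the wider stretch of 5 Mb around Gc, 6 of 45 tested genes rose and 3 fell, a share of 20% that is near the 18.9% of all tested genes. The named genes there were chosen after their values were seen. Areg, the amphiregulin gene, begins 1681701 bases from Gc and rose by 5.04 on the log2 scale, and Csn3, a casein gene, rose by 3.36 from a mean of 0.0937 CPM. The UDP-glucuronosyltransferase gene Ugt2b34 fell by 0.63.

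The ghrelin gene Ghrl stood at 3.38 ± 1.36 CPM in WT and 5.68 ± 1.39 CPM in Wfs1KO (log2 fold change 0.75, adjusted p = 0.0723, edgeR). It passed with the replicate block (adjusted p = 0.00462), in DESeq2 (0.0385) and in limma-voom (0.0362). It also passed in edgeR without WT replicate 2 (0.00677), without Wfs1KO replicate 1 (0.0400) and in replicates 3 and 4 alone (0.0220). In 15 of 21 alternatives it was not called. Ghrl overlaps Gm26982 and Gm44033 on the opposite strand.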
